A study of Mus musculus with 12 samples.

Results

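The clustered histone genes are the replication-dependent genes for the core histones H2A, H2B, H3 and H4 and for the linker histone H1 of the mouse. They were taken as the gene symbols that begin with Hist1h, Hist2h, Hist3h or Hist4h followed by a histone class. The rule found 68 of the 23366 symbols in the count table, of which 54 belong to the Hist1 cluster, 10 to Hist2, 3 to Hist3 and 1 to Hist4. By class they comprise 6 H1, 18 H2A, 19 H2B, 12 H3 and 13 H4 genes, 1 of them the pseudogene symbol Hist3h2bb-ps. Over all libraries 53 members had 20 or more counts, 15 had fewer, and 3 of these (Hist1h1t, Hist1h2aa and Hist2h2ab) had none.

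RNA was sequenced from mouse embryonic fibroblasts (MEFs), connective tissue cells grown from embryos, of strain C57BL/6 at passages 3 to 5. The groups were Carm1 KO cells after 18 h of glucose starvation (KO starved), Carm1 KO cells in rich medium at 0 h (KO rich), wild-type cells after 18 h of glucose starvation (WT starved) and wild-type cells in rich medium at 0 h (WT rich), with 2 libraries each. CARM1 is an arginine methyltransferase of histone H3 and of other proteins, and the study addressed its part in the response to starvation. All cells were grown with 10% fetal bovine serum, and the glucose-free medium held 10% dialyzed serum, so serum dialysis changed together with glucose. The labels give no rich-medium library at 18 h, no description of the KO allele and no statement that the 2 libraries of a group came from separate cultures. P-values therefore measure the spread between these libraries, which may be technical.

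Cells make most of their histone protein from the clustered genes while DNA is being copied, when the new DNA has to be packed into nucleosomes. Messenger RNAs of these genes typically end in a conserved stem-loop in place of a poly(A) tail. The stem-loop binding protein SLBP governs their processing, export and decay, and the coactivator NPAT drives their transcription. Replacement histones such as H3.3 and H2A.Z are encoded elsewhere in the genome, have polyadenylated mRNAs and are also made outside S phase. The sources used here do not say whether the RNA was selected for poly(A), which bears on how much of a clustered histone mRNA enters a library. Many clustered genes are nearly identical in sequence, so their values are less certain: 4 pairs had the same counts in all 8 libraries (Hist1h2ao with Hist1h2ap, Hist1h2bq with Hist1h2br, Hist1h4m with Hist1h4n, and Hist2h2aa1 with Hist2h2aa2).

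The promoters of 6 members that the results turn on are printed below, to show the elements that clustered histone genes of a class share. Each is the 200 bases before the annotated start, written 5′ to 3′ on the strand of the gene, from RefSeq on GRCm38.p6. Capitals mark matches, on either strand, to the octamer ATTTGCAT, the CCAAT box CCAAT, the TATA box TATAAA and the H1 box AAACACA.
Hist1h1c, chr13:23738607-23738806, plus strand: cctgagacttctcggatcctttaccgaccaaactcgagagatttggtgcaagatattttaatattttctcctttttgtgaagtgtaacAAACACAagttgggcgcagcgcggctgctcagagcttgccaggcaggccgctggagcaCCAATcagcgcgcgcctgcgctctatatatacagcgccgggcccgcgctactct
Hist1h2ap, chr13:21833476-21833675, minus strand: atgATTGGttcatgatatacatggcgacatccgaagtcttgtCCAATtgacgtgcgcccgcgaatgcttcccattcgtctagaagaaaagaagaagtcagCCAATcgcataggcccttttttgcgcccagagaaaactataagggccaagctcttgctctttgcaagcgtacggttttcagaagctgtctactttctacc
Hist1h2bk, chr13:22035621-22035820, plus strand: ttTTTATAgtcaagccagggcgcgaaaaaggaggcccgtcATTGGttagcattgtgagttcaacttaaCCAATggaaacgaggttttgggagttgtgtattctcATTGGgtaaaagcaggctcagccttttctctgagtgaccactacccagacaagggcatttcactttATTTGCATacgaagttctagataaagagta
Hist1h3d, chr13:23575563-23575762, plus strand: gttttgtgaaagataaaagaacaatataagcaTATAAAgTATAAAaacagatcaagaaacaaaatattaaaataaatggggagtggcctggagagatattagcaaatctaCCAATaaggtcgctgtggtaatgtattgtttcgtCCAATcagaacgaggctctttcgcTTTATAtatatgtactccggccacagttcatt
Hist3h2a, chr11:58954485-58954684, plus strand: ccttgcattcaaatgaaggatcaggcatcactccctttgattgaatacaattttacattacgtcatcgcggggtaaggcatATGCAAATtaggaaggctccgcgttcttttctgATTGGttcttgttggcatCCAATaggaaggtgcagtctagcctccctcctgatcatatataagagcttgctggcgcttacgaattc
Hist4h4, chr6:136804432-136804631, minus strand: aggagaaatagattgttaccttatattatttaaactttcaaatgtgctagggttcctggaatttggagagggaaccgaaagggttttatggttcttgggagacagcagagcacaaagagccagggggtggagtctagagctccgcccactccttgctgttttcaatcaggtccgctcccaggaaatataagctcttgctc

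Of the 68 members, 67 matched a RefSeq entry by accession and 62 had a promoter sequence. The CCAAT box, which binds the factor NF-Y, stood in 51 of the 62 windows (82.3%), against 29.4% of all 32841 promoters in the table. It was present in all 6 H1, all 18 H2A and all 16 H2B windows, in 8 of 10 H3 windows and in 3 of 12 H4 windows. The octamer, a binding sequence of OCT1 known from H2B promoters, stood in 13 windows (21%), against 1.38% of all promoters, and these were 7 H2A and 6 H2B windows. The TATA box stood in 26 (41.9%) against 9.96%, and the H1 box, known from H1 promoters, in 8 (12.9%) against 4.8%, 5 of them H1 windows. Overlapping matches were each marked, and a match is a run of letters, not a measured binding site. Hist4h4 held none of the 4 motifs in this window. In 10 pairs of neighbours the starts lay within 500 bases on opposite strands, and every such pair joined an H2A gene to an H2B gene, so that part of a window is shared between both.

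Library totals ran from 8447016 counts in KO rich replicate 1 to 28155438 counts in WT starved replicate 2, so that 3 counts correspond to 0.369 CPM (counts per 1000000, with library sizes scaled by the trimmed mean of M values) in the shallowest library and to 0.104 CPM in the deepest. Carm1 had 53.9 and 58.6 CPM in KO starved cells, 48.1 and 70.8 CPM in KO rich cells, 176 and 164 CPM in WT starved cells, and 207 and 204 CPM in WT rich cells. The KO rich replicates differed most from each other: replicates of all genes tested differed with an SD of 0.91 on the log2 scale in KO rich cells, against 0.36 in KO starved, 0.34 in WT starved and 0.35 in WT rich cells. This spread does not show which of the 2 KO rich libraries is unusual, though replicate 1 is the shallowest. Among the 53 members with 20 or more counts, 42 were lower in KO rich replicate 1 than in replicate 2, against 53.7% of all genes tested, and 18 were at 0 there. Of the fibroblast markers Col1a1, Col1a2 and Vim were abundant in all libraries. Dcn (1172 to 1954 CPM) and Thy1 (124 to 180 CPM) were high in KO cells and stayed under 0.8 CPM in WT cells. An effect of Carm1 loss and another difference between the cultures cannot be told apart here. Of 12 fibroblast markers tested, 8 were higher and 1 (Col1a1) lower in KO rich than in WT rich cells, and 9 were higher and 2 (Col1a1 and Fap, the second at 0 in all KO libraries) lower in KO starved than in WT starved cells. Their sum was 6587 to 6780 CPM in KO starved cells, 7505 to 9701 CPM in KO rich cells, 4923 to 5344 CPM in WT starved cells and 7995 to 8031 CPM in WT rich cells, so it was lowest where the clustered histone sum was lowest. The same held for the neural markers, at 506 to 523 CPM in KO starved cells, 458 to 596 CPM in KO rich cells, 173 to 176 CPM in WT starved cells and 599 to 690 CPM in WT rich cells, nearly all of it Nes and Tubb3, while Sox2 was at 0 and Sox10 had 1 count in all. Summed endothelial markers were 242 to 245 CPM in KO starved cells, 132 to 158 CPM in KO rich cells, 3.79 to 5.02 CPM in WT starved cells and 2.09 to 2.28 CPM in WT rich cells, nearly all of it Cdh5 in KO cells. Of the 3 endothelial markers tested, Cdh5 and Pecam1 were higher and Kdr lower in KO than in WT cells in either medium, and Tie1 and Emcn were at 0 throughout. Leukocyte markers summed to 2.14 to 7.01 CPM over all libraries. The part of these marker differences in the results was not tested.

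Clustered histone mRNAs were scarce in WT starved cells and present at higher levels in the other 3 groups. Summed over all members, the level was 57.1 and 73.5 CPM in KO starved cells, 32.5 and 69.2 CPM in KO rich cells, 17.5 and 17.6 CPM in WT starved cells, and 71.9 and 83.9 CPM in WT rich cells. The WT starved libraries lay below all 6 others, and the KO libraries overlapped between media. The group mean in WT starved cells (17.6 ± 0.04 CPM, SD, n = 2) was 22.6% of that in WT rich cells (77.9 ± 8.47 CPM), whereas KO starved cells (65.3 ± 11.6 CPM) had 1.28 times the mean of KO rich cells (50.8 ± 25.9 CPM). After starvation the mean was 3.72 times as high in KO as in WT cells. A single gene, Hist1h1c, gave 30.5% and 23.5% of the members' counts in the WT rich libraries and between 3.64% and 11.2% elsewhere. Without it the WT starved mean was 29.5% of the WT rich mean and the KO starved mean was 3.46 times the WT starved mean. In bulk RNA, fewer cells that make a transcript and less of it per cell cannot be told apart.

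**Figure D1:**
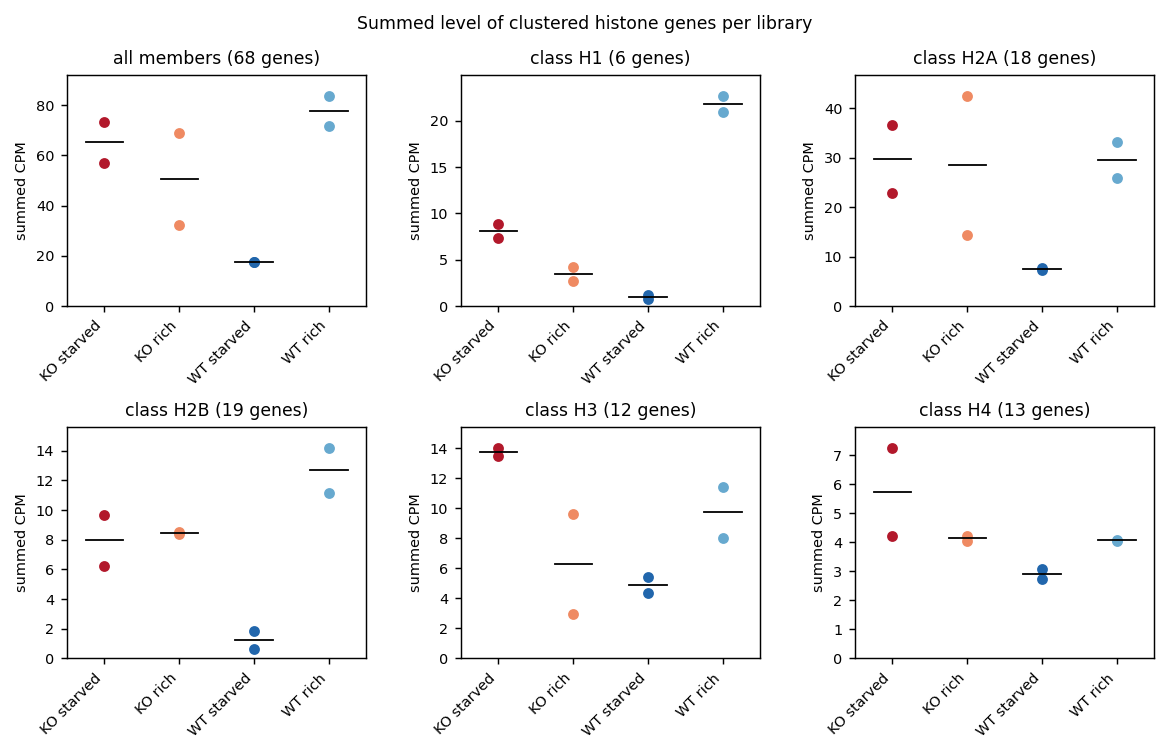
Summed CPM of the clustered histone genes, all 68 members and each class, with a panel each. Points are libraries (2 per group), black lines group means, and the y axes are linear and start at 0. The WT starved libraries are the lowest for all members, at 17.5 and 17.6 CPM.

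The linker and core histone classes are described here by their sums. H1 summed to 8.12 ± 1.11 CPM in KO starved, 3.46 ± 1.07 CPM in KO rich, 1.00 ± 0.29 CPM in WT starved and 21.8 ± 1.24 CPM in WT rich cells (SD, n = 2 throughout). H2A summed to 29.7 ± 9.79, 28.5 ± 19.9, 7.48 ± 0.35 and 29.5 ± 5.11 CPM in KO starved, KO rich, WT starved and WT rich cells. The H2A sums of WT starved cells lay below the range of the other 3 groups, which overlapped. H2B, in the same order of groups, summed to 7.95 ± 2.45, 8.43 ± 0.08, 1.27 ± 0.86 and 12.7 ± 2.15 CPM. H3 summed to 13.8 ± 0.39, 6.30 ± 4.73, 4.89 ± 0.72 and 9.74 ± 2.41 CPM. H4 summed to 5.74 ± 2.15, 4.14 ± 0.11, 2.92 ± 0.23 and 4.07 ± 0.04 CPM, the narrowest range of the 5 classes. WT starved cells thus kept 4.60% of the WT rich sum for H1, 9.99% for H2B, 25.3% for H2A, 50.2% for H3 and 71.6% for H4, as a description with no test. A few genes outside Hist1 weighed on these shares: within the Hist1 cluster, a subset chosen after seeing the data, WT starved cells kept 6.20% for H2B, 11.3% for H2A, 24.7% for H3 and 30.4% for H4. By cluster, the WT starved sum was 9.92% of the WT rich sum for Hist1, 47.9% for Hist2, 91.6% for Hist3 and 115.6% for Hist4, the last being the single gene Hist4h4.

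Of the 53 members with 20 or more counts, 44 passed the filter on low counts and were tested: 3 H1, 16 H2A, 9 H2B, 12 H3 and 4 H4 genes. The other 9 were too low to test. Members were called at an adjusted p under 0.05 in edgeR's quasi-likelihood test over 13882 genes. A member that passed the filter only through its level in some groups was more likely to differ, so the counts below describe the tested members and not the whole family. Near-identical members may share reads, so their calls are not independent of each other. Hist1h2ad and Hist1h2ah, for example, had 31 and 73 against 32 and 66 counts in WT rich cells.

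Clustered histone mRNAs were lower in starved than in rich WT cells. Of the 44 members tested, 22 fell and 0 rose, where 18% of all genes tested fell and 14.8% rose. The median log2 fold change of the members was -2.73 (-2.46 with members at 0 set to their bound), against 0.00 over all genes. Both WT starved libraries were below both WT rich libraries for 42 of the 53 members with 20 or more counts and above them for 0, where 40.7% of all genes tested lay fully below and 41% fully above. The calls fell on 13 of 16 H2A, 5 of 9 H2B, 3 of 12 H3, 1 of 3 H1 and 0 of 4 H4 genes, and 28 members had an unadjusted p under 0.05. For H4, where edgeR called 0 genes, 0 had an unadjusted p under 0.05. The number of calls depended on single libraries, as did the number over all genes tested. Both numbers fell without any single WT or KO starved library and rose without either KO rich library. The members' median log2 fold change was -3.09 or -2.57 without WT starved replicate 1 or 2. It was -3.03 or -2.43 without WT rich replicate 1 or 2, and -2.90 or -2.87 without KO rich replicate 1 or 2. Called without each of the 8 libraries in turn were Hist1h1c, Hist1h2bc, Hist1h2bg and Hist1h2bl.

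**Figure D2:**
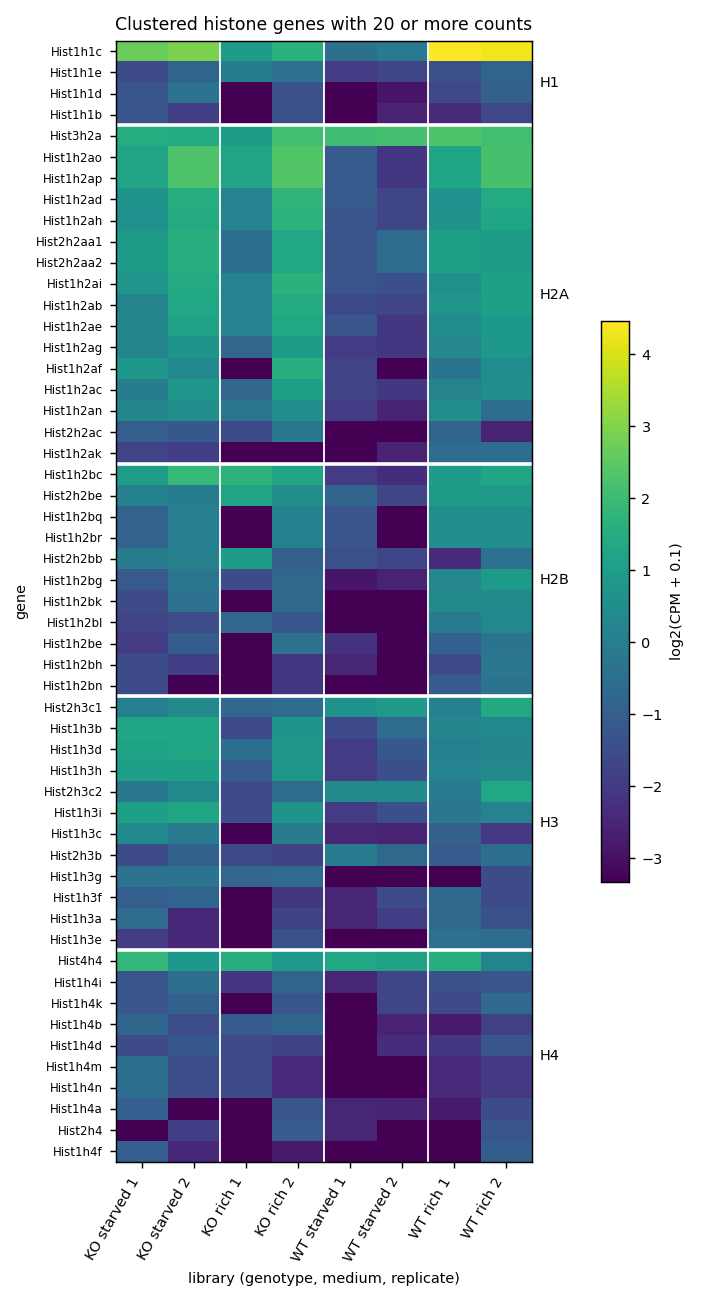
Level of the 53 clustered histone genes with 20 or more counts in each library, as log2(CPM + 0.1), ordered by class and by mean level within a class. Columns are libraries and white lines part the groups and classes. The 2 columns of WT starved cells are dark for most H1, H2A and H2B genes, and Hist3h2a, Hist2h3c1 and Hist4h4 stay bright there.

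Most members passed no test between starved and rich KO cells. Of the 44, 1 rose (Hist1h1c) and 0 fell, where 8.44% of all genes tested rose and 9.78% fell, and 2 members had an unadjusted p under 0.05. The median log2 fold change was 0.10, with 25 members above 0 and 19 below. Both KO starved libraries were above both KO rich libraries for 15 of 53 members and below them for 3, where 28.7% and 26.6% of all genes tested did so. These values depended on single libraries, as did the number called over all genes tested. The median was -0.05 or 1.37 without KO rich replicate 1 or 2, and 0.35 or -0.01 without KO starved replicate 1 or 2. That few members passed the test does not show that KO cells kept their level.

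Few members were called between KO and WT cells in rich medium. Of the 44, 4 were lower in KO rich cells (Hist1h1c, Hist1h2ak, Hist1h2bg and Hist2h3c1) and 0 higher, where 20.6% of all genes tested were lower and 23.4% higher. Both KO rich libraries were below both WT rich libraries for 15 of 53 members and above them for 3, where 35.8% and 34.1% of all genes tested did so. The number of calls depended on single libraries, as did the number over all genes tested. The members' median log2 fold change was 0.02 with all libraries. It was 0.12 or -1.41 without KO rich replicate 1 or 2, and -0.12 or 0.07 without WT rich replicate 1 or 2. Hist1h1c was the only one of the 4 that was called without each library in turn. Few calls do not show that KO and WT cells had the same level in rich medium.

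After starvation, clustered histone mRNAs were higher in KO than in WT cells. Of the 44, 27 were higher and 0 lower, where 27.8% of all genes tested were higher and 26.8% lower (54.6% in either direction). The calls took in 13 of 16 H2A, 6 of 12 H3, 5 of 9 H2B, 2 of 3 H1 and 1 of 4 H4 genes, and the median log2 fold change was 2.88 (2.76 with members at their bound), against -0.02 over all genes. Both KO starved libraries were above both WT starved libraries for 44 of 53 members and below them for 3, where 44.1% and 45.5% of all genes tested did so. The number of calls depended on single libraries, as did the number over all genes tested. With 1 library left out, the members' median log2 fold change ran from 2.47 (without KO starved replicate 2) to 3.12 (without KO starved replicate 1). Called without each library in turn were 9: Hist1h1c, Hist1h2an, Hist1h2ao, Hist1h2ap, Hist1h2bc, Hist1h2bl, Hist1h3d, Hist1h3h and Hist1h3i. Of the 22 genes that fell in starved WT cells, 20 were among these 27. That is 90.9% and 74.1% of the lists, but both comparisons use the WT starved libraries, which favours an overlap in any set of genes. The overlap over all genes tested is not given here, so these shares say nothing particular to the members.

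The responses to starvation were also compared directly, as the KO change minus the WT change. Of the 44 members, 10 had a higher change in KO than in WT cells and 0 a lower one, where 7.42% and 5.91% of all genes tested did so, and 25 had an unadjusted p under 0.05. The median of this difference over the members was 2.80 on the log2 scale, against 0.00 over all genes. Only Hist1h1c was called without each library in turn. The number of calls rose without either KO rich library and fell without any other, as did the number over all genes tested. The median difference was 2.44 without KO rich replicate 1 and 4.63 without KO rich replicate 2. It was 2.69 to 3.11 without any other single library.

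**Figure D3:**
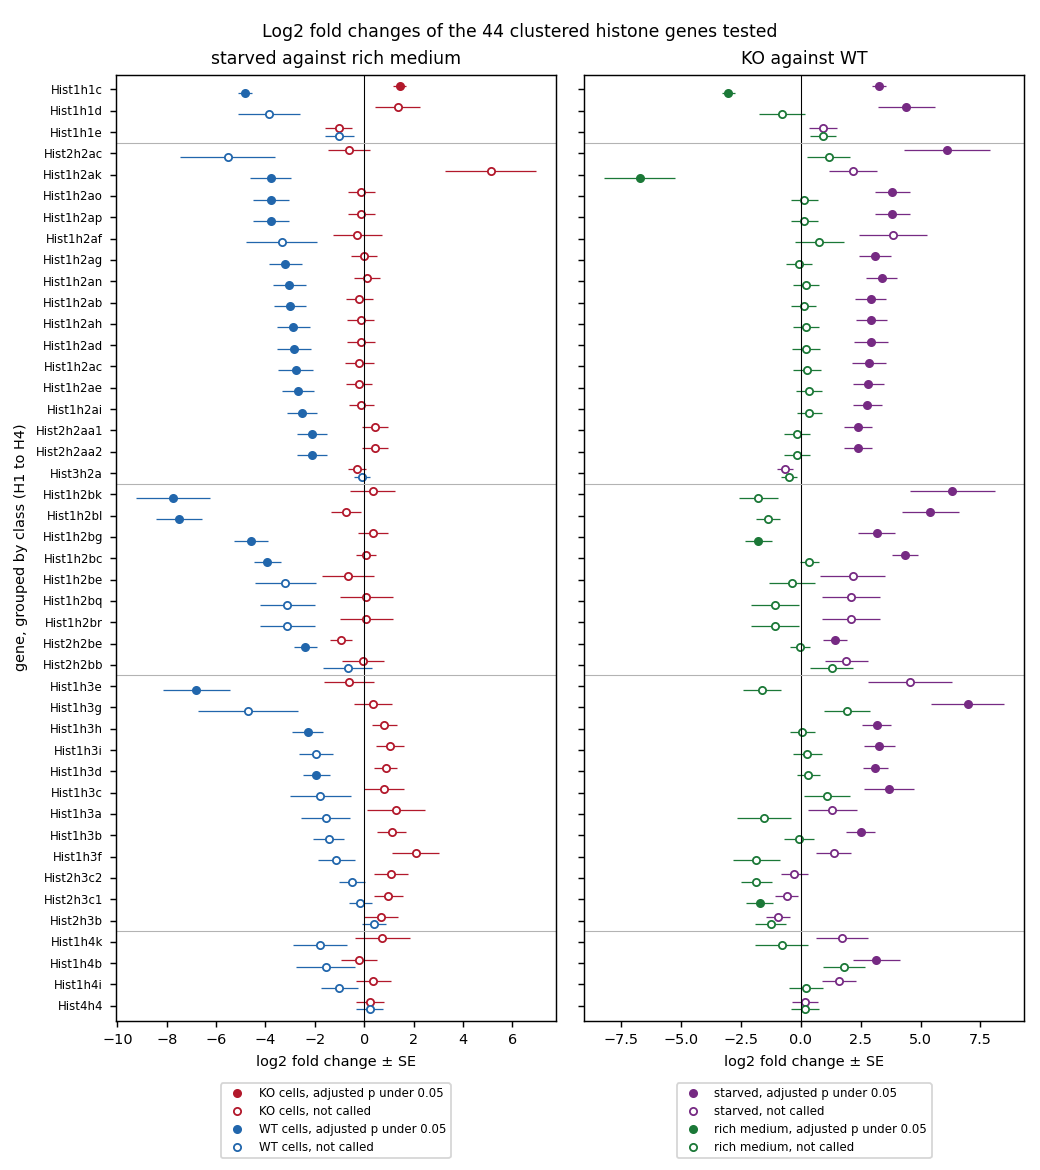
Log2 fold changes from edgeR, ± SE derived from its F statistic, of the 44 members tested, for starvation (left, KO above WT in each row) and genotype (right, starved above rich medium in each row). Filled points have an adjusted p under 0.05. Values of genes with a group at 0 depend on the prior count and are not bounds. In WT cells 42 of 44 points lie below 0, and for starved cells 40 of 44 KO against WT points lie above 0.

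Among the H1 genes, which encode the linker histones that bind DNA between nucleosomes, Hist1h1c carried most of the counts. Hist1h1c (histone H1.2) had 6.38 and 7.49 CPM in KO starved cells, 1.85 and 3.01 CPM in KO rich cells, 0.638 and 0.796 CPM in WT starved cells, and 21.9 and 19.7 CPM in WT rich cells. The 4 groups did not overlap, and its order ran from WT rich over KO starved and KO rich to WT starved. In WT cells it fell by 4.84 ± 0.29 on the log2 scale with starvation (edgeR adjusted p = 0.000156), and in KO cells it rose by 1.44 ± 0.26 (edgeR adjusted p = 0.0126). The difference of these responses was 6.28 ± 0.39 (edgeR adjusted p = 0.00056). It was lower in KO than in WT cells in rich medium (log2 fold change -3.03 ± 0.27, edgeR adjusted p = 0.000162) and higher after starvation (3.26 ± 0.29, edgeR adjusted p = 0.000107). The rise in KO cells was lost without KO starved replicate 1 or 2, among other settings, with adjusted p-values from 3.57e-06 to 0.321 over all settings and tools.

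Hist1h1e (H1.4) had 0.241 and 0.473 CPM in KO starved cells, 0.861 and 0.649 CPM in KO rich cells, 0.159 and 0.208 CPM in WT starved cells, and 0.279 and 0.464 CPM in WT rich cells, and passed no test. Hist1h1d (H1.3) had 0.321 and 0.688 CPM in KO starved cells, against 0 and 0.0346 CPM in WT starved cells. With 1 count in WT starved cells its count ratio, KO over WT, was 26.9 (exact 95% interval 4.38 to 1106, counting error only), and edgeR called it (adjusted p = 0.0165). Hist1h1b was too low to test, Hist1h1a had under 20 counts, and the testis-specific Hist1h1t had 0 counts in every library.

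Among the H2A genes, whose proteins pair with H2B in the nucleosome and which form the class with the most calls, 11 of the 12 tested Hist1 members fell in starved WT cells. Hist1h2ap, with the same counts as Hist1h2ao, had 2.25 and 4.78 CPM in KO starved cells, 2.21 and 4.96 CPM in KO rich cells, 0.359 and 0.139 CPM in WT starved cells, and 2.28 and 4.53 CPM in WT rich cells. The other 3 groups overlapped, and the WT starved libraries stood apart. The log2 fold change with starvation was -3.79 ± 0.73 in WT cells (edgeR adjusted p = 0.00793) and -0.11 ± 0.56 in KO cells (edgeR adjusted p = 0.928). After starvation it was higher in KO cells by 3.82 ± 0.73 (edgeR adjusted p = 0.00381), and the responses differed by 3.68 ± 0.93 (edgeR adjusted p = 0.044). The call on the responses held in 8 of 16 alternative settings, with a difference from 3.05 to 4.48.

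The 13 H2A genes that fell in starved WT cells had log2 fold changes from -3.80 (Hist1h2ak) to -2.11 (Hist2h2aa1 and Hist2h2aa2). Not called among the 16 were Hist1h2af, Hist2h2ac and Hist3h2a, the first at 0 in WT starved replicate 2 and KO rich replicate 1, and Hist2h2ac at 0 in both WT starved libraries. Hist1h2ak had 0.201 and 0.172 CPM in KO starved cells, 0 counts in both KO rich libraries, 0 and 0.0693 CPM in WT starved cells, and 0.558 and 0.606 CPM in WT rich cells. In rich medium it was at least 5.79-fold lower in KO than in WT cells (3 counts over the KO libraries as the floor; edgeR adjusted p = 0.0131). Hist1h2an had 1.08 and 1.33 CPM in KO starved cells, against 0.159 and 0.0693 CPM in WT starved cells (log2 fold change 3.37 ± 0.66, edgeR adjusted p = 0.00435).

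Hist3h2a, the only tested gene of the Hist3 cluster, had 2.73 and 2.58 CPM in KO starved cells, 1.85 and 4.22 CPM in KO rich cells, 4.10 and 4.40 CPM in WT starved cells, and 4.93 and 4.17 CPM in WT rich cells. WT starved and WT rich cells overlapped, with a log2 fold change of -0.09 ± 0.33 (edgeR adjusted p = 0.865). A difference between this gene and the Hist1 genes was not tested.

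Among the H2B genes, Hist1h2bc had 1.93 and 3.61 CPM in KO starved cells, 3.20 and 2.23 CPM in KO rich cells, 0.159 and 0.104 CPM in WT starved cells, and 1.81 and 2.28 CPM in WT rich cells. The WT starved libraries lay far below the other 6, which overlapped between groups. With starvation it fell in WT cells (log2 fold change -3.93 ± 0.54, edgeR adjusted p = 0.00233) and had a value of 0.07 ± 0.39 in KO cells (edgeR adjusted p = 0.936). The responses differed by 4.0 ± 0.68 (edgeR adjusted p = 0.012), and this call was lost under some settings. It held in 13 of 16 alternative settings, with a difference from 3.47 to 4.37. After starvation it was higher in KO cells by 4.35 ± 0.53 (edgeR adjusted p = 0.000485).

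Hist1h2bk had 0.241 and 0.645 CPM in KO starved cells, 0 and 0.510 CPM in KO rich cells, 0 counts in both WT starved libraries, and 1.21 and 1.18 CPM in WT rich cells. The level was at least 21.4-fold lower in WT starved than in WT rich cells and at least 7.84-fold higher in KO starved than in WT starved cells. Hist1h2bl had 0.201 and 0.258 CPM in KO starved cells, 0.492 and 0.325 CPM in KO rich cells, 0 counts in both WT starved libraries, and 0.836 and 1.14 CPM in WT rich cells. That is at least 18.1-fold lower in WT starved than in WT rich cells (edgeR adjusted p = 0.00242). Hist1h2bg had 0.361 and 0.731 CPM in KO starved cells, 0.246 and 0.510 CPM in KO rich cells, 0.0399 and 0.0693 CPM in WT starved cells, and 1.12 and 1.78 CPM in WT rich cells. Its 3 counts in WT starved cells gave a ratio to WT rich cells of 0.0372 (exact 95% interval 0.00751 to 0.113), and in rich medium it was lower in KO than in WT cells (log2 fold change -1.78 ± 0.56, edgeR adjusted p = 0.0364).

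Hist2h2be had 0.963 and 0.861 CPM in KO starved cells, 2.34 and 1.35 CPM in KO rich cells, 0.478 and 0.208 CPM in WT starved cells, and 1.81 and 1.75 CPM in WT rich cells. It fell in starved WT cells (log2 fold change -2.38 ± 0.47, edgeR adjusted p = 0.00877), and in KO cells its value was -0.93 ± 0.45 (edgeR adjusted p = 0.19), with both KO starved libraries below both KO rich libraries. Its responses did not pass the test of their difference (1.45 ± 0.65, edgeR adjusted p = 0.187). Of the 10 divergent H2A and H2B pairs, 5 had both genes tested. Both genes had a negative log2 fold change in starved WT cells in all 5, and both were called in 3: Hist1h2ai with Hist1h2bl, Hist1h2ah with Hist1h2bk, and Hist1h2ae with Hist1h2bg. Since 42 of the 44 members tested were negative there, this is not particular to pairs. The pair of Hist1h2ao with Hist1h2bq also repeats the counts of the pair of Hist1h2ap with Hist1h2br.

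**Figure D4:**
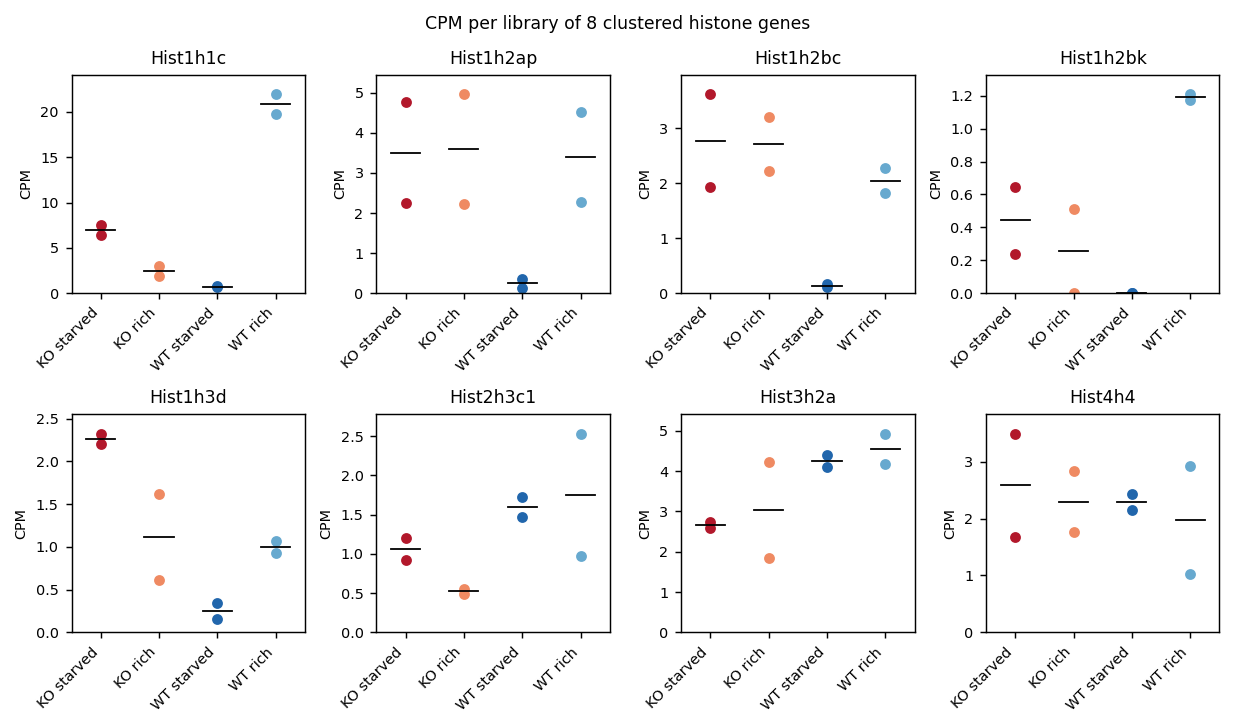
CPM of 8 members in each library. Points are libraries (2 per group), black lines are means, and y axes are linear, start at 0 and differ between panels. Hist1h1c, Hist1h2ap, Hist1h2bc, Hist1h2bk and Hist1h3d are lowest in WT starved cells, and Hist2h3c1, Hist3h2a and Hist4h4 are not.

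H3 forms the core of the nucleosome with H4. Hist1h3d had 2.21 and 2.32 CPM in KO starved cells, 0.615 and 1.62 CPM in KO rich cells, 0.159 and 0.346 CPM in WT starved cells, and 0.929 and 1.07 CPM in WT rich cells. KO starved cells held the highest values and WT starved cells the lowest. It fell in starved WT cells (log2 fold change -1.94 ± 0.54, edgeR adjusted p = 0.0322), its value in KO cells was 0.87 ± 0.45 (edgeR adjusted p = 0.225), and the responses differed by 2.81 ± 0.71 (edgeR adjusted p = 0.0438). Hist1h3h had 2.01 and 2.07 CPM in KO starved cells, 0.369 and 1.62 CPM in KO rich cells, 0.159 and 0.277 CPM in WT starved cells, and 1.02 and 1.18 CPM in WT rich cells, with a difference of responses of 3.11 ± 0.81 (edgeR adjusted p = 0.0473). Of 16 alternative settings, the call on the responses held in 9 for Hist1h3d and in 6 for Hist1h3h. Hist1h3b had 2.29 and 2.32 CPM in KO starved cells, against 0.239 and 0.554 CPM in WT starved cells (log2 fold change 2.50 ± 0.62, edgeR adjusted p = 0.0116). Hist1h3e was at 0 in both WT starved libraries, at least 10.9-fold below WT rich cells. Hist1h3g was at least 12.3-fold higher in KO starved than in WT starved cells, where it was also at 0.

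None of the Hist2 genes for H3 was called in starved WT cells. Hist2h3c1 had 0.922 and 1.20 CPM in KO starved cells, 0.492 and 0.557 CPM in KO rich cells, 1.47 and 1.73 CPM in WT starved cells, and 0.976 and 2.53 CPM in WT rich cells. WT starved cells lay within the range of WT rich cells (log2 fold change -0.15 ± 0.45, edgeR adjusted p = 0.839). In rich medium it was lower in KO than in WT cells (-1.73 ± 0.56, edgeR adjusted p = 0.0414). Hist2h3b had 0.241 and 0.430 CPM in KO starved cells, against 0.797 and 0.519 CPM in WT starved cells, and passed no test. Hist2h3b, Hist2h3c1 and Hist2h3c2 were the H3 genes with a negative log2 fold change for KO against WT after starvation, at -0.96, -0.59 and -0.27.

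Of the 13 H4 genes, 10 had 20 or more counts and 4 were tested, so little can be said of this class. Hist4h4, the only gene of the Hist4 cluster, had 3.49 and 1.68 CPM in KO starved cells, 2.83 and 1.76 CPM in KO rich cells, 2.43 and 2.15 CPM in WT starved cells, and 2.93 and 1.03 CPM in WT rich cells. All 4 groups overlapped, and its log2 fold changes in the 4 pairwise comparisons lay between 0.17 and 0.24. Hist1h4i had 0.321 and 0.602 CPM in KO starved cells, 0.123 and 0.464 CPM in KO rich cells, 0.0797 and 0.208 CPM in WT starved cells, and 0.279 and 0.321 CPM in WT rich cells, and passed no test. Hist1h4b was the only H4 gene called, higher in KO starved than in WT starved cells with a count ratio of 10.1 (exact 95% interval 2.41 to 89.6, edgeR adjusted p = 0.0305).

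The promoters printed above can be set beside these calls. Of the 22 members that fell in starved WT cells 20 had a promoter sequence, and all 20 windows held a CCAAT box, against 14 of 20 windows of tested members that were not called. The octamer stood in 6 and 3 of these windows and the TATA box in 8 and 7. These are counts over related genes of unequal classes, since most H4 windows lack a CCAAT box, and they were not tested. Hist3h2a, which was not called, holds both an octamer and a pair of CCAAT boxes.

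The replacement histones, made from single genes with polyadenylated mRNAs, were also lower in starved WT cells. Summed over 11 genes they reached 2127 to 2160 CPM in KO starved cells, 2144 to 2418 CPM in KO rich cells, 1046 to 1098 CPM in WT starved cells and 2306 to 2328 CPM in WT rich cells. In starved WT cells 7 of the 11 fell and 0 rose (median log2 fold change -1.14), where 18% of all genes tested fell and 14.8% rose, and the number that fell was 5 to 11 with 1 library left out, at 11 without either KO rich library. In starved KO cells 2 fell and 0 rose (median -0.18), where 9.78% of all genes fell and 8.44% rose. After starvation 5 were higher and 3 lower in KO than in WT cells (median 0.63), where 27.8% of all genes were higher and 26.8% lower. That total of calls was 5 to 11 with 1 library left out, with the lowest number without KO starved or WT starved replicate 1 and the highest without either KO rich library. The responses differed at 4, all higher in KO cells, where 7.42% of all genes had a higher response, and this number was 1 without any single KO starved, WT starved or WT rich library, 8 (2 of them lower) without KO rich replicate 1 and 10 (2 lower) without KO rich replicate 2. In starved KO cells 0 passed without either KO starved library, and 8 and 7 without KO rich replicate 1 and 2, some of them higher. H1f0, the linker histone H1.0 of resting cells, had 350 and 348 CPM in KO starved cells, 334 and 483 CPM in KO rich cells, 92.5 and 96.1 CPM in WT starved cells, and 429 and 427 CPM in WT rich cells. H3f3b, a gene for H3.3, had 1249.7 and 1215 CPM in KO starved cells, 1234 and 1071 CPM in KO rich cells, 475 and 483 CPM in WT starved cells, and 877 and 868 CPM in WT rich cells. Both were lowest in WT starved cells, as were most clustered genes, and their responses differed by 1.95 ± 0.25 (H1f0, edgeR adjusted p = 0.00457) and 0.96 ± 0.18 (H3f3b, edgeR adjusted p = 0.0152). H1fx, a further linker histone, was at 0 in all KO libraries and had 4.07 and 3.53 CPM in WT starved cells and 27.2 and 24.5 CPM in WT rich cells.

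Genes of S phase, the phase in which clustered histone genes are known to be transcribed, were lowest in KO starved cells. Summed over 40 genes of DNA replication they reached 3178 to 3211 CPM in KO starved cells, 5851 to 6174 CPM in KO rich cells, 6918 to 6945 CPM in WT starved cells and 6087 to 6106 CPM in WT rich cells. In starved WT cells 10 of the 40 rose and 4 fell (median log2 fold change 0.19), where 14.8% of all genes tested rose and 18% fell. In starved KO cells 0 rose and 30 fell (median -0.94), where 8.44% rose and 9.78% fell. After starvation 1 was higher and 33 lower in KO than in WT cells (median -1.35), where 27.8% of all genes were higher and 26.8% lower. The responses differed at 26, all lower in KO cells, where 7.42% of all genes had a higher and 5.91% a lower response. Cdc6, a factor that licenses replication origins, had 24.9 and 23.4 CPM in KO starved cells, 72.1 and 86.0 CPM in KO rich cells, 152 and 150 CPM in WT starved cells, and 76.9 and 78.4 CPM in WT rich cells. The KO starved libraries, with more clustered histone mRNA than the WT starved libraries, thus had less mRNA of replication genes. The number that fell in starved KO cells dropped without either KO starved library and rose without either KO rich library, as did the number called over all genes tested. The median there stayed between -0.94 and -0.83. The numbers called in starved WT cells and for differing responses also depended on single libraries, as did those over all genes tested, and were highest without a KO rich library. With 1 library left out, the median ran from 0.17 to 0.21 in starved WT cells and from -1.20 to -1.03 for the difference of responses.

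**Figure D5:**
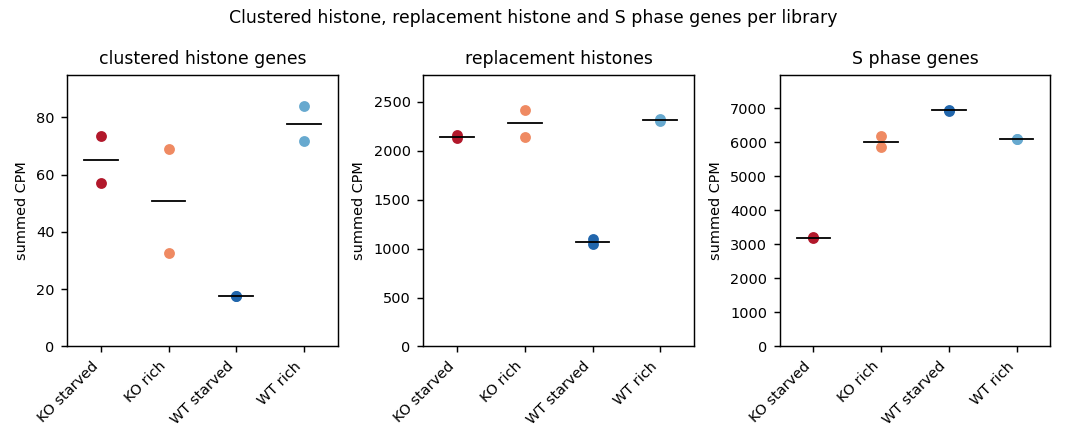
Summed CPM of the clustered histone genes, of 11 replacement histone genes and of 40 S phase genes in each library. Points are libraries (2 per group), black lines are means, and y axes are linear and start at 0. WT starved cells are lowest in the first and second panels, and KO starved cells are lowest in the third, at 3178 to 3211 CPM.

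Genes for factors that transcribe, process, degrade or carry histone mRNA or protein were read beside the same shares of all genes tested (14.8% rose and 18% fell in starved WT cells, 8.44% rose and 9.78% fell in starved KO cells, and 27.8% were higher and 26.8% lower in KO than in WT cells after starvation). Of 15 genes of histone mRNA 3′ end processing, 0 rose and 1 fell in starved WT cells, 0 rose and 3 fell in starved KO cells, and 1 was higher and 3 lower in KO than in WT cells after starvation. Slbp, the stem-loop binding protein, had 38.9 and 42.3 CPM in KO starved cells, 151 and 102 CPM in KO rich cells, 126 and 140 CPM in WT starved cells, and 144 and 142 CPM in WT rich cells. It fell in starved KO cells (log2 fold change -1.64 ± 0.20, edgeR adjusted p = 0.00329) and had a value of -0.11 ± 0.19 in WT cells (edgeR adjusted p = 0.71). Of 14 genes of histone gene transcription, 1 rose and 5 fell in starved WT cells, 0 rose and 9 fell in starved KO cells, and after starvation 2 were higher and 6 lower in KO than in WT cells. Npat had 48.4 and 47.8 CPM in KO starved cells, 136 and 69.2 CPM in KO rich cells, 144 and 128 CPM in WT starved cells, and 95.3 and 89.2 CPM in WT rich cells. The responses of Npat differed by -1.64 ± 0.40 (edgeR adjusted p = 0.0387). Of 21 histone chaperones, 1 rose and 3 fell in starved WT cells and 1 rose and 9 fell in starved KO cells. Of 17 genes of histone mRNA decay, 0 rose and 4 fell in each genotype. Calls in these 4 lists also depended on single libraries: without a KO rich library they took in genes of both directions, as for the chaperones in starved KO cells (13 fell and 4 rose without KO rich replicate 2), where edgeR called 0 without either KO starved library.

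Because clustered histone mRNAs typically lack a poly(A) tail, other RNAs listed as lacking one were read beside them. Whether the members' counts came from transcripts with or without a tail was not tested. Of 12 RNAs listed as such, 8 were in the table and 3 could be tested. Rmrp stayed at or under 0.64 CPM in every library, and Rpph1, Terc, Rnu11, Rnu12 and Vaultrc5 had too few counts to test, while Malat1 and Neat1 were abundant. How much of the Neat1 counts came from RNA with a tail was not tested, so Neat1 is no measure of RNA without one. Neat1 had 1927 and 1915 CPM in KO starved cells, 648 and 757 CPM in KO rich cells, 1209 and 1257 CPM in WT starved cells, and 444 and 525 CPM in WT rich cells, and both starved groups lay above both rich groups. Symbols of small RNAs (741, of which 146 were tested) summed to 599.8 to 602 CPM in KO starved cells, 526 to 698 CPM in KO rich cells, 578 to 628 CPM in WT starved cells and 635 to 647 CPM in WT rich cells. Of the 146, 9 rose and 18 fell in starved WT cells (median log2 fold change -0.34), against 14.8% and 18% of all genes. In starved KO cells 6 rose and 3 fell (median 0.08), against 8.44% and 9.78%. After starvation 35 were higher and 13 lower in KO than in WT cells (median 0.29), against 27.8% and 26.8%. The responses of 7 were higher and of 1 lower in KO cells (median 0.54), against 7.42% and 5.91%. Whether libraries differed in how much RNA without a poly(A) tail they took in was not tested.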

How the data were processed

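The table holds whole-number read counts per RefSeq transcript, which the authors deposited without normalization. Per the submitters' processing notes, TopHat2 2.0.9, bedtools and the mm9 build were used. For poly(A) selection, strand and reads with several matches, the sources used here give no setting. RNA was extracted with Trizol and RNeasy columns, per the labels' protocols. The 4 ChIP libraries were not analysed here.

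For each symbol the transcript row with most counts over all libraries was kept, and 8 libraries in 4 groups were fitted together. The tools were edgeR 4.0.16 (TMM factors, filterByExpr, quasi-likelihood test of group means, Benjamini-Hochberg adjustment over 13882 genes, threshold 0.05), limma 3.58.1 and DESeq2 1.42.0 in R 4.3.3, and Python 3.11.15. The biological coefficient of variation was 18.5%. Each SE is the absolute log2 fold change divided by the square root of the test's F statistic, and not a direct output of edgeR. It can be unreliable for very small changes, as for the difference of responses of Hist1h1e (-0.01, SE 22.0). Scripts were tested on simulated data. Bounds use a floor of 3 counts over a group, and ratio intervals are exact at 95%. Intervals and floors cover counting error only. Among counts from 1 to 100, 59.8% of the members' values and 63.9% of other genes' values were even, so counts may not be independent and intervals may be too narrow.

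The members and lists were chosen with earlier results of these data known. Genes named are the 2 members per class with the highest mean CPM, up to 6 called members with the smallest p per comparison and up to 4 genes per list, of which 1 is not reported here; Hist1h1d, Hist1h2an, Hist1h2bk, Hist1h3e, Hist1h3g, Hist1h4b, Hist2h3b and others were named after their values were seen. Promoter sequences come from RefSeq on GRCm38.p6 and were matched by accession, with no coordinates taken from mm9. Alternatives were other scaling factors, filters, tools, replicate block, transcript rows summed and each library left out.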

Additional observations from a re-analysis of the deposited data

Results flagged for a closer look

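The starvation response differed between KO and WT cells at 10 clustered histone genes (KO change minus WT change on the log2 scale, edgeR's quasi-likelihood test). The difference was 6.28 for Hist1h1c, 3.68 for Hist1h2ao and for Hist1h2ap, which have the same counts, 4.0 for Hist1h2bc, 4.95 for Hist1h2bg, 2.81 for Hist1h3d and 3.11 for Hist1h3h. It was 8.92 for Hist1h2ak, 8.11 for Hist1h2bk and 6.79 for Hist1h2bl, whose counts reach 0 in a group, so that these fitted values depend on the prior count. Only Hist1h1c was called without each library in turn.

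Among replacement histones the responses differed by 1.95 for H1f0, 0.96 for H3f3b, 0.96 for H2afy2 and 1.66 for Cenpa. For genes of histone mRNA processing and histone gene transcription the values were -1.53 for Slbp, -1.97 for Casp8ap2, -1.91 for E2f1, -1.10 for Cdk2 and -1.64 for Npat. For histone chaperones they were -1.22 for Ubn1, -1.33 for Chaf1b, -1.39 for Mms22l and -1.72 for Tonsl. For S phase genes they were -2.67 for Cdc6, -1.75 for Lig1 and -1.97 for Clspn.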

How the results depend on the processing

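The cause of the changes below was not tested, except that a stricter filter tests fewer genes. A filter of 5 CPM in 2 libraries left 1 member to test, Hist1h1c, which was called in starved WT cells, between genotypes in either medium and for the difference of responses (1 each). Library quality weights in limma gave 0 calls in starved KO cells, 1 in rich medium and 4 for the difference of responses, where DESeq2 gave 18. With only the 4 libraries compared there were 0 calls in starved KO cells, where 0 of all genes tested were called, so this says nothing particular to the members. In rich medium there were 2, where 3245 of all genes were called. Leaving out 1 library at a time gave 5 to 33 calls in starved WT cells, 0 to 11 in starved KO cells, 2 to 12 in rich medium, 14 to 35 between starved genotypes and 1 to 33 for the difference of responses. Where this leaves a group with 1 library, it is assumed to vary like the others. The number called over all genes tested mostly rose and fell with these numbers. Shifts in the number of calls are therefore mostly not particular to the members or to the other lists. The members' median log2 fold change did shift apart from that of all genes without KO rich replicate 2. It was 1.37 against 0.09 in starved KO cells, and -1.41 against -0.12 for KO against WT in rich medium. Without KO rich replicate 1 these pairs were -0.05 against 0.00 and 0.12 against -0.03. In starved KO cells far fewer of all genes were called without either KO starved library.

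The members' share of a library, in unscaled CPM, became 61.9 and 87.0 in KO starved, 36.7 and 86.6 in KO rich, 20.3 and 19.2 in WT starved, and 87.9 and 104.0 in WT rich cells with transcript rows summed, and 17.9 and 17.6 in WT starved cells with members under 20 counts left out. Replicate numbers did not pair the samples (r from -0.03 to 0.06), and with a replicate block the calls were 23 in starved WT cells, 1 in starved KO cells, 5 in rich medium, 26 between starved genotypes and 9 for the difference. Counting identical genes once, chosen after seeing the data, gave 20, 1, 4, 25 and 9. Members with close but not identical counts were still counted singly. Total-count scaling moved the median of all genes between starved genotypes to -0.14. In the shallowest library, KO rich replicate 1, levels under 0.369 CPM rest on fewer than 3 counts.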
